A study of Homo sapiens with 4 samples.

Results

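The 10 genes described here encode activating receptors of natural killer (NK) cells and the adapter proteins that carry their signals: the natural cytotoxicity receptors NCR1, NCR2 and NCR3, the nectin receptor CD226, the SLAM family receptors CD244, SLAMF6 and SLAMF7, and the adapters TYROBP, FCER1G and CD247. They were chosen by gene symbol and by no threshold on measured values, although with earlier results of these data known, and all 10 were found among the 20323 genes listed. RNA came from NK-92, a human NK cell line grown with 100 IU/ml interleukin 2, after transduction with a lentiviral hairpin. In NK scramble cells this was a scrambled control. In NK shADAR1 cells it targeted ADAR1, an enzyme that edits adenosine to inosine in double-stranded RNA, with 2 libraries in each group. The comparison asked how the transcripts of NK-92 cells differed once ADAR1 was knocked down. Both groups were the same transduced cell line, and the labels name no target cells in the culture. The knockdown libraries were numbered 1 and 2 in the labels, and these numbers were read as replicate numbers. The study also numbered its hairpins in this way, but for this RNA sequencing it names only the hairpin with the higher number.

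An NK cell kills when signals from activating receptors outweigh those from inhibitory ones. The natural cytotoxicity receptors signal through partner proteins. NKp46 (NCR1) and NKp30 (NCR3) pair in the membrane with CD3ζ (CD247) and FcRγ (FCER1G), and NKp44 (NCR2) pairs with DAP12 (TYROBP), whose immunoreceptor tyrosine-based activation motifs recruit the kinases SYK and ZAP70. SLAM family receptors bind one another or, for 2B4 (CD244), the family member CD48, and recruit through tyrosine motifs in their own tails the small adapters SAP (SH2D1A) and EAT-2 (SH2D1B), while DNAM-1 (CD226) signals through its own tail after binding PVR or nectin-2.

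The libraries held 37881704 to 39960491 estimated counts. The 10 NK cell markers examined were above 0 in all 4 libraries, with a summed level of 3783 to 4307 FPKM (fragments mapped to a gene, scaled by transcript length and by all mapped fragments). Of 10 T cell markers, CD8A and CD8B were at 0 in every library and CD3G had 0 to 2 counts, whereas CD3E stood at 396 to 554 FPKM and TRAC at 104 to 139 FPKM. The T cell markers summed to 625 and 773 FPKM in NK scramble and to 775 and 850 FPKM in NK shADAR1. B cell markers summed to 3.03 to 7.81 FPKM and myeloid markers to 6.7 to 9.18 FPKM, with 1 gene of each list at 0 in every library, and the part of other cell types in the results was not tested. ADAR, the targeted gene, had 655 and 682 CPM in NK scramble libraries 1 and 2 and 575 and 482 CPM in NK shADAR1 libraries 1 and 2, where CPM is the count scaled to a common depth by edgeR's TMM method. This is a log2 fold change of -0.34 (standard error 0.20, adjusted p = 1.00, edgeR quasi-likelihood test). ADAR RNA thus did not pass the test in these libraries, in which no tested gene passed. The study reports verifying the knockdown by qRT-PCR and western blotting. Across genes, log2 CPM correlated at r = 0.981 between replicates of either group. Between groups r was 0.985 and 0.989 for libraries of the same number and 0.982 and 0.981 for the other pairs. This is a description over genes, which are not independent replicates.

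None of the 10 genes passed the test for differential expression (a change of 1.5-fold or more at an adjusted p under 0.05, edgeR quasi-likelihood test), and the share of all 11810 tested genes that passed was 0%. DESeq2, run here on the deposited counts, also called 0 genes. The study reports differentially expressed genes with DESeq2 at these thresholds, and the source of this difference was not tested. At an unadjusted p under 0.05 edgeR gave 293 genes (2.48% of those tested) and 0 of the 10 members, and DESeq2 gave 289 genes. All 10 members passed the filter on low counts. The CPM values of the groups did not overlap for 5 members, with NCR1, NCR2, NCR3 and CD226 higher in NK shADAR1 and CD244 lower. Over all tested genes, 13.3% had non-overlapping groups with NK shADAR1 higher and 12.6% had them with NK shADAR1 lower. The log2 fold change was above 0 for 9 members and below 0 for 1, with a median of 0.13, beside 2.76e-05 over all tested genes. That median ranged from 0.0641 to 0.303 when single libraries were left out, the highest value being the one without NK scramble replicate 2. In absolute size, the members' median log2 difference was 0.142 and that of all tested genes 0.145. The 95% interval of the log2 fold change included 0 for all 10 members and lay wholly inside a 1.5-fold change in either direction (0.585 on the log2 scale) for 5 of them, NCR3, CD244, SLAMF6, SLAMF7 and CD247.

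**Figure D1:**
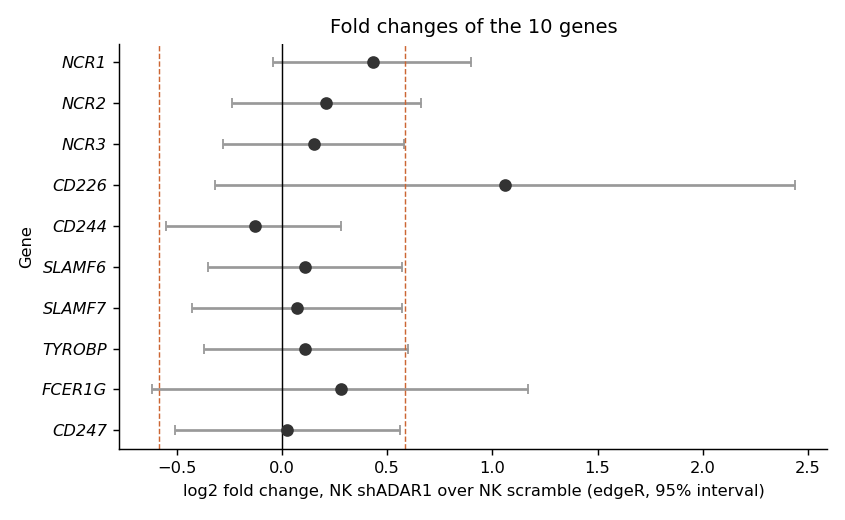
Log2 fold change of each gene in NK shADAR1 over NK scramble (x axis, edgeR, 2 libraries per group), with bars for the 95% interval and dashed lines at a 1.5-fold change. All 10 intervals include 0, and CD226, counted at 10 to 39 per library, has the widest one.

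The stretches just upstream of the start sites are shown for 3 of the 5 members whose groups did not overlap, a choice made after their values were seen. They are the 250 bases before the transcription start in RefSeq (GRCh38.p14), read 5′ to 3′ on the strand of the gene. Entries were found for 8 of the 10 genes, all but NCR3 and SLAMF7. Capitals mark matches, on either strand, to 5 short motifs: TGTGGT (RUNX core), TCACACC (T-box element), GGAAGT (ETS core), GAAANNGAA (core of the interferon-stimulated response element) and TTCNNNGAA (interferon-gamma activated site).
NCR1, chr19:54905898-54906147, plus strand: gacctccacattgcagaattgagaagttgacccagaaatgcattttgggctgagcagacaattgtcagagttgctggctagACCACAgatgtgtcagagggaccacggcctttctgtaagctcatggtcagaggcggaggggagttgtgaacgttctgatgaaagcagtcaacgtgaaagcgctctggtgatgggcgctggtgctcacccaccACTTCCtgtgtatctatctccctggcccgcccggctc
NCR2, chr6:41335358-41335607, plus strand: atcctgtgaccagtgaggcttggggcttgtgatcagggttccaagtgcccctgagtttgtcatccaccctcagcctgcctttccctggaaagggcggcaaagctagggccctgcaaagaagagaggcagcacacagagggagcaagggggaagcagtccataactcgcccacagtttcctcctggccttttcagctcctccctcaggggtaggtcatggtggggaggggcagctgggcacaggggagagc
CD244, chr1:160862888-160863137, minus strand: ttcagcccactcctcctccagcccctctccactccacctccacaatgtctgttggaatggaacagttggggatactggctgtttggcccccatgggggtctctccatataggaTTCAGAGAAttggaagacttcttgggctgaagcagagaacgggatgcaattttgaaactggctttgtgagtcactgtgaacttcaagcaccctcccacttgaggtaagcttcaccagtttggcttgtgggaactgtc

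Counting back from the RefSeq start site, the NCR1 window held TGTGGT at -169 to -164 and GGAAGT at -37 to -32. Both were on the opposite strand and are therefore printed as their reverse complements. The CD244 window held TTCNNNGAA at -137 to -129. In the NCR2 window none of the 5 letter patterns was found. Among the 8 genes with an entry, TGTGGT was found for NCR1 and FCER1G, and GGAAGT for 5 genes, NCR1, CD226, SLAMF6, TYROBP and CD247. CD226 also had a window without GGAAGT, and the stretch after its window with GGAAGT was found in no GENCODE transcript of the gene. The stretches after the printed NCR2 and CD244 windows were likewise found in no GENCODE transcript of their genes, whereas that after the NCR1 window was found. A gene was counted if any of its windows matched, whereas the shares over RefSeq are per window. TCACACC and GAAANNGAA were found for 0 of them. Over 35114 RefSeq windows of the same length, 11% held TGTGGT, 2.76% TCACACC, 19.5% GGAAGT, 6.88% GAAANNGAA and 6.57% TTCNNNGAA. None of these patterns overlaps another in the printed windows, and a match of letters says nothing on whether a factor binds there.

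By FPKM, a level per length of transcript that can be compared between genes, the 10 genes spanned from 0.064 to 321. NCR3 was the highest, at 281 to 321 FPKM over the 4 libraries, followed by SLAMF7 at 123 to 176 FPKM. CD244 (103 to 113 FPKM), CD247 (86.2 to 118 FPKM) and TYROBP (59.9 to 88 FPKM) came next, and in that order each overlapped its neighbour. SLAMF6 stood at 39 to 50.8 FPKM, above the levels of NCR1 (19.8 to 31.7 FPKM) and NCR2 (19.2 to 23.7 FPKM). The ranges of NCR1 and NCR2 overlapped, yet NCR1 was above NCR2 in 4 of 4 libraries. FCER1G (2.96 to 4.79 FPKM) and CD226 (0.064 to 0.245 FPKM) were apart from all the rest and from each other.

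**Figure D2:**
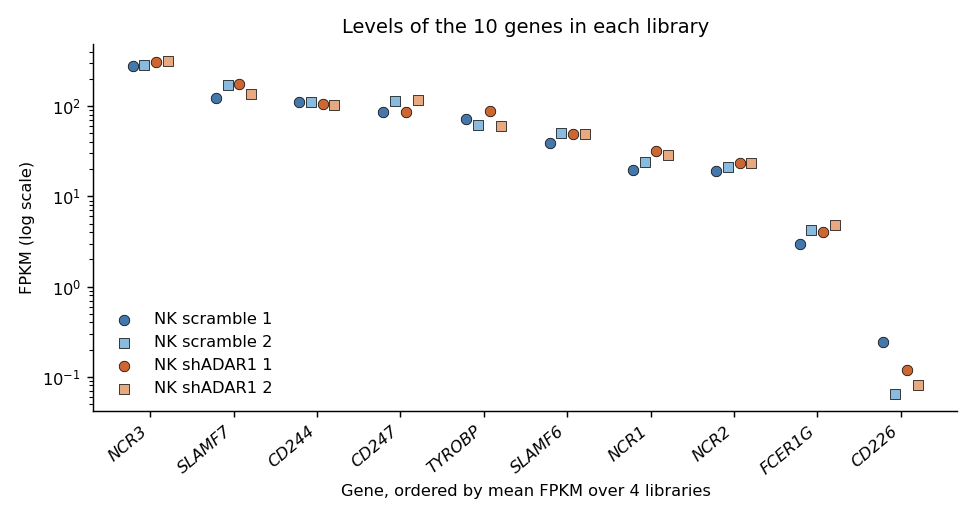
FPKM of each gene (y axis, log scale) in the 4 libraries, with circles for replicate 1 and squares for replicate 2 of each group, genes in order of their mean. NCR3 is highest at 281 to 321 FPKM, and FCER1G and CD226 lie below the other 8 genes in every library.

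NCR1 encodes NKp46, the receptor that marks NK cells across mammals. It lies on chr19:54906150-54916140, plus strand (GRCh38, GENCODE release 29, as for every gene position here). NCR1 had 848 and 1080 estimated counts in NK scramble libraries 1 and 2 and 1277 and 1239 in NK shADAR1 libraries 1 and 2. In FPKM these were 19.8 and 24.1 (21.9 ± 3.0, mean ± SD, n = 2) and 31.7 and 29.1 (30.4 ± 1.87, n = 2). Both NK shADAR1 libraries were above both NK scramble libraries, in CPM as in FPKM. The log2 fold change of NCR1 was 0.43 (standard error 0.21, 95% interval -0.041 to 0.90), with an unadjusted p of 0.0696 and an adjusted p of 1.00 in edgeR. The replicates of NK scramble themselves were 0.37 apart on the log2 CPM scale and those of NK shADAR1 0.031. The log2 fold change of NCR1 ranged from 0.25 to 0.62 when single libraries were left out in turn, the highest without NK scramble replicate 2. The start-site window with the RUNX and ETS letters printed above belongs to this gene.

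NCR2 encodes NKp44, which resting blood NK cells lack and activated ones display. The gene lies on chr6:41335655-41350887, plus strand, and had 857 and 955 counts in NK scramble and 1000 and 1031 counts in NK shADAR1, or 19.2 and 21.2 FPKM (20.2 ± 1.42, n = 2) and 23.4 and 23.7 FPKM (23.6 ± 0.264, n = 2). The groups of NCR2 did not overlap, with both NK shADAR1 libraries the higher. Its log2 fold change of 0.21 (standard error 0.20, 95% interval -0.24 to 0.66, unadjusted p = 0.32, adjusted p = 1.00, edgeR) was about the size of its error. It was 0.123 without NK scramble replicate 1 and 0.299 without NK scramble replicate 2.

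NCR3 encodes NKp30, which recognises B7-H6 (NCR3LG1) and BAG6 on target cells. It lies on chr6:31588895-31592985, minus strand. NCR3 had 11635 and 12015 counts in NK scramble against 12263 and 13101 in NK shADAR1, or 281 and 285 FPKM (283 ± 2.92, n = 2) and 309 and 321 FPKM (315 ± 8.34, n = 2). Here too both knockdown libraries were the higher. For NCR3 the log2 fold change came to 0.15 (standard error 0.19, 95% interval -0.28 to 0.58, unadjusted p = 0.456, adjusted p = 1.00, edgeR). Left-out libraries moved it between 0.06 (NK shADAR1 replicate 2) and 0.234 (NK shADAR1 replicate 1). NCR3 shares 15 exonic bases with LST1 on the opposite strand (1.24% of its exonic bases). Whether strand was used in counting is not given in the sources used here, and LST1 had 374 to 534 counts.

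Summed over the 3 natural cytotoxicity receptors, the level was 320 and 331 FPKM in NK scramble and 364 and 374 FPKM in NK shADAR1. NCR3 made up most of it, with 87.8% and 86.3% in NK scramble against 84.9% and 85.9% in NK shADAR1. The share of NCR1 was 6.18% and 7.27% in NK scramble against 8.71% and 7.78% in NK shADAR1, and that of NCR2 stayed between 6% and 6.42%. The FPKM of NCR3 was 14.2 and 11.9 times that of NCR1 in NK scramble libraries 1 and 2, against 9.75 and 11 times in NK shADAR1 libraries 1 and 2. With 2 libraries per group the smallest two-sided p of an exact permutation test is 0.333, so these shares and ratios carry no test.

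CD226 encodes DNAM-1, which shares its ligands with the receptors TIGIT and CD96. It was the least abundant member and the one on which the deposited units gave opposite directions. CD226 had 19 and 10 counts in NK scramble against 39 and 20 in NK shADAR1, or 0.476 and 0.255 CPM and 0.992 and 0.536 CPM, so both NK shADAR1 libraries were the higher. In FPKM the same libraries read 0.245 and 0.064 in NK scramble against 0.12 and 0.08 in NK shADAR1, where the highest and the lowest values were both in NK scramble. From counts, the log2 fold change of CD226 came to 1.06 (standard error 0.62, 95% interval -0.32 to 2.44, unadjusted p = 0.119, adjusted p = 1.00, edgeR). It ranged from 0.549 without NK shADAR1 replicate 1 to 1.57 without NK scramble replicate 1. On log2(FPKM + 1) the value was -0.0656 in limma, with an unadjusted p of 0.557.

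The transcript length that links a count to its FPKM differed between libraries for CD226. Computed from both values and the library's total count, it was 1962 and 3910 bases in NK scramble and 8579 and 6485 bases in NK shADAR1, the largest being 4.37 times the smallest. Only 0.169% of tested genes had a ratio that large, the median being 1.06 and the 95th percentile 1.51. For the other 9 members the ratio was between 1 and 1.06, and for FCER1G the length was 590 bases in all 4 libraries, next to an annotated transcript of 591 bases. CD226 lies on chr18:69831158-69961803, minus strand, and its annotated protein-coding transcripts run from 579 to 12319 bases. It shares 112 exonic bases (0.821%) with DOK6 on the opposite strand, which had 0 to 2 counts.

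**Figure D3:**
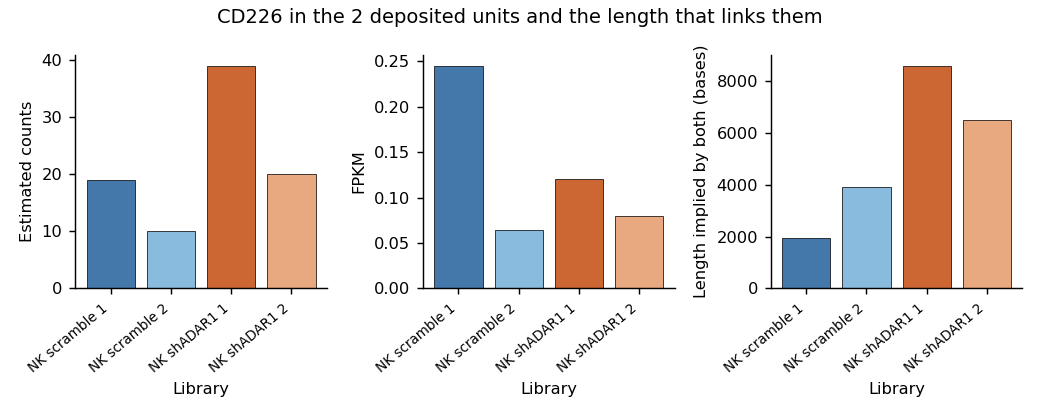
CD226 in each of the 4 libraries as estimated counts (left), FPKM (middle) and the transcript length in bases implied by both (right), each bar being 1 library. Counts are higher in both NK shADAR1 libraries, at 39 and 20, the FPKM of NK scramble 1 is the highest at 0.245, and the implied length runs from 1962 to 8579 bases.

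CD244 encodes 2B4, the SLAM family receptor for CD48, and was the single member below 0. It lies on chr1:160830160-160862855, minus strand. CD244 had 10495 and 10603 counts in NK scramble against 9292 and 9315 in NK shADAR1, or 111 and 113 FPKM (112 ± 1.52, n = 2) and 105 and 103 FPKM (104 ± 0.877, n = 2). Both knockdown libraries were lower than both controls, and replicates were close, differing by 0.038 and 0.078 on the log2 CPM scale. Its log2 fold change came to -0.13 (standard error 0.19, 95% interval -0.55 to 0.28, unadjusted p = 0.495, adjusted p = 1.00, edgeR).

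SLAMF6 (NTB-A) and SLAMF7 (CRACC, the target of the antibody elotuzumab) both bind their own kind on neighbouring cells. SLAMF6, on chr1:160485030-160523262, minus strand, had 4091 and 5256 counts in NK scramble against 4790 and 4960 in NK shADAR1, or 39.0 and 50.8 FPKM and 48.7 and 49.9 FPKM. The lowest and the highest SLAMF6 values were both NK scramble libraries. SLAMF7, on chr1:160739057-160754821, plus strand, had 12744 and 17366 counts in NK scramble against 17267 and 13460 in NK shADAR1, or 123 and 172 FPKM and 176 and 136 FPKM. Each group held a high and a low SLAMF7 library, so the groups overlapped.

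SLAMF6 had a log2 fold change of 0.11 (95% interval -0.35 to 0.57) and SLAMF7 one of 0.071 (95% interval -0.43 to 0.57), with adjusted p = 1.00 for both in edgeR. Neither direction was stable. Without NK scramble replicate 1 the values turned to -0.0743 and -0.148, and without NK shADAR1 replicate 1 SLAMF7 turned to -0.0775. Of the summed level of the 3 SLAM receptors, CD244 held 40.6% and 33.7% in NK scramble against 31.8% and 35.7% in NK shADAR1, and SLAMF6 held 14.3% to 17.2% over the 4 libraries. SLAMF7 held the remaining 45.1% to 53.4% and was the largest of the 3 in every library.

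TYROBP encodes DAP12, the adapter of NKp44 and of activating KIR and NKG2C receptors. TYROBP, on chr19:35904401-35908295, minus strand, had 1601 and 1391 counts in NK scramble against 1848 and 1298 in NK shADAR1, or 72.6 and 62.1 FPKM and 88 and 59.9 FPKM. The highest and the lowest TYROBP values were both NK shADAR1 libraries. The TYROBP log2 fold change came to 0.11 (standard error 0.22, 95% interval -0.37 to 0.60, adjusted p = 1.00, edgeR) and turned to -0.118 without NK shADAR1 replicate 1.

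CD247 encodes CD3ζ, which serves NKp46 and NKp30 in NK cells and the antigen receptor in T cells. On chr1:167430640-167518610, minus strand, it had 5640 and 7572 counts in NK scramble against 5440 and 7497 in NK shADAR1, or 86.2 and 115 FPKM and 86.9 and 118 FPKM. Both libraries numbered 1 were low and both numbered 2 were high, and the replicates of a group differed by 0.45 and 0.54 on the log2 CPM scale. Against this, the difference between the groups was 0.022 on the log2 scale (standard error 0.24, 95% interval -0.51 to 0.56, adjusted p = 1.00, edgeR). It turned to -0.187 without NK scramble replicate 1 and to -0.274 without NK shADAR1 replicate 2. CD3E, another chain of the T cell receptor complex, was 4.26 to 5.19 times as high as CD247 in FPKM, with CD3D and CD3G below 1 FPKM throughout.

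FCER1G encodes FcRγ, which can stand in for CD3ζ beside NKp46 and NKp30 and also serves IgE receptors. FCER1G, on chr1:161215234-161220699, plus strand, had 69 and 101 counts in NK scramble against 90 and 109 in NK shADAR1, or 2.96 and 4.28 FPKM and 4.03 and 4.79 FPKM. The groups overlapped. The log2 fold change of FCER1G was 0.28 (standard error 0.40, 95% interval -0.62 to 1.17, adjusted p = 1.00, edgeR), and it ranged from 0.015 without NK scramble replicate 1 to 0.58 without NK scramble replicate 2.

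Of the adapters that can pair with NKp46 and NKp30, CD247 was 21.6 to 29.1 times as high as FCER1G in FPKM in each of the 4 libraries. CD247 held 53.3% and 63.3% of the summed level of the 3 adapters in NK scramble against 48.6% and 64.5% in NK shADAR1. TYROBP held 44.9% and 34.3% in NK scramble against 49.2% and 32.9% in NK shADAR1, which leaves FCER1G with 1.83% to 2.63%. The sum was 162 and 181 FPKM in NK scramble and 179 and 182 FPKM in NK shADAR1. The shares of CD247 and TYROBP moved with the replicate number in both groups: TYROBP was at 44.9% and 49.2% in the libraries numbered 1 and at 34.3% and 32.9% in those numbered 2. The labels do not say what a number stands for beyond the replicate.

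The direct partners of the receptors were abundant. SH2D1A, which encodes SAP, had 122 and 121 FPKM in NK scramble and 142 and 141 FPKM in NK shADAR1, yet its CPM values overlapped between the groups and its log2 fold change from counts was 0.12 (adjusted p = 1.00, edgeR). SH2D1B, which encodes EAT-2, had 39.1 and 60.3 FPKM in NK scramble and 50.1 and 57.3 FPKM in NK shADAR1. CD48, the ligand of 2B4 and itself a SLAM family member, had 446 and 431 FPKM in NK scramble and 348 and 420 FPKM in NK shADAR1, with a log2 fold change of -0.19 (standard error 0.21, adjusted p = 1.00, edgeR).

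CD244 and its ligand CD48 were both lower in NK shADAR1 with no overlap of the groups, as were 12.6% of all tested genes. Neither passed the test. For CD48 the values were 375 and 481 CPM in NK shADAR1 against 488 and 488 CPM in NK scramble. The FPKM of CD244 was 0.249 and 0.262 times that of CD48 in NK scramble and 0.3 and 0.246 times in NK shADAR1. HCST, which encodes DAP10, the adapter of NKG2D, had 128 and 192 FPKM in NK scramble and 185 and 207 FPKM in NK shADAR1. On the log2 scale HCST differed by 0.29 (standard error 0.24, adjusted p = 1.00, edgeR), and the groups overlapped.

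None of the tested genes in the lists around the members passed either. Of 6 other SLAM family genes 4 were tested, 2 above and 2 below 0. SLAMF8 alone among them had an unadjusted p under 0.05, with 15.3 and 19.4 FPKM in NK scramble and 31.8 and 23.1 FPKM in NK shADAR1 and a log2 fold change of 0.58 (unadjusted p = 0.0278, adjusted p = 1.00, edgeR). Of 4 receptors listed beside CD226, CD96 had 135 and 149 FPKM in NK scramble and 212 and 181 FPKM in NK shADAR1. This is a log2 fold change of 0.51 (unadjusted p = 0.0422, adjusted p = 1.00, edgeR). The other 3 of that list overlapped between the groups.

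Among 11 receptors that use the same or related adapters 8 were tested, 7 above and 1 below 0, with a median log2 fold change of 0.33 and 4 whose groups did not overlap, NK shADAR1 being higher, a pattern that 13.3% of all tested genes had. KLRK1, which encodes NKG2D, had 26.5 and 30.1 FPKM in NK scramble and 46 and 40.5 FPKM in NK shADAR1. The log2 difference for KLRK1 was 0.62 (standard error 0.20, unadjusted p = 0.0104, adjusted p = 1.00, edgeR). Its estimated counts were not whole numbers, which can arise where reads match more than 1 gene.

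The ligands listed numbered 8, of which 7 were tested, with a median log2 fold change of 0.094, 4 above and 3 below 0. Other adapters (5 tested of 6) had a median of 0.089. Of 52 proximal signaling genes, the kinases, phosphatases and exchange factors that act next to these receptors, 50 were tested, 34 above and 16 below 0, with a median of 0.054, 7 without overlap higher in NK shADAR1 and 3 lower, beside 13.3% and 12.6% of all tested genes. Only PTPN6, which encodes the phosphatase SHP-1 that opposes activating signals, had an unadjusted p under 0.05 among them. PTPN6 had 7.53 and 12 FPKM in NK scramble and 15 and 16.2 FPKM in NK shADAR1, a log2 fold change of 0.66 (standard error 0.25, unadjusted p = 0.026, adjusted p = 1.00, edgeR). Together the lists around the members held 79 distinct tested genes, of which 4 (5.06%) had an unadjusted p under 0.05, all with NK shADAR1 higher. Over all tested genes the share was 2.48%, with 201 higher and 92 lower in NK shADAR1. These shares carry no test, since the lists were written with earlier results of these data known. KLRK1 and PTPN6 were already named by the study as increased in the same RNA sequencing.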

How the data were processed

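Oligo(dT)-selected RNA of 4 NK-92 libraries was sequenced on an Illumina platform, and reads were filtered with fastp 0.18.0 per the submitters' processing notes. The authors deposited estimated counts per gene, not scaled for depth, and FPKM values, which divide the counts by transcript length and mapped fragments. The aligner, the counting program and the genome build are not given in the sources used here. Of 20323 genes, 20301 matched a symbol. For 79% of genes above 0, the estimated counts were whole (within 0.005) in every library, as for all 10 members.

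Counts were rounded and analysed in R 4.3.3 with edgeR 4.0.16: filterByExpr (minimum count 10, which left 11810 genes), TMM scaling and the quasi-likelihood test without covariates, p-values being adjusted over all tested genes by the Benjamini-Hochberg method. A called gene had an adjusted p under 0.05 and changed by 1.5-fold or more. The study used DESeq2, which was run here as an alternative (DESeq2 1.42.0), as was limma 3.58.1 on FPKM. The implied transcript length is the count divided by the FPKM and by the library's total count. The test script was checked on simulated counts.

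The members and lists were chosen with earlier results of these data known. Named besides the members were ADAR, the partners SH2D1A, SH2D1B, HCST and CD48 and, since no listed gene was called, those with an unadjusted p under 0.05. Marker genes, LST1 and DOK6 and 3 upstream windows were named after their values were seen. Alternatives were DESeq2, RLE and upper quartile scaling, unadjusted p, no filter, a minimum mean of 50 counts, FPKM with a pseudocount of 1 or 0.1, the replicate number as a block, and each library left out. Depth left counting error small except for CD226 and FCER1G. The test treated the replicates as independent, and 2 per group set the precision.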

Additional observations from a re-analysis of the deposited data

How the results depend on the processing

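No member was called under any alternative run. For single members, 111 of 119 alternative log2 fold changes kept their direction and 8 reversed, and the lowest adjusted p was 0.73. CD226 reversed on FPKM, to -0.0656 with a pseudocount of 1 and -0.257 with 0.1 (limma), and was not tested where a mean of at least 50 counts was required. Without NK scramble replicate 1, SLAMF6 reversed to -0.0743, SLAMF7 to -0.148 and CD247 to -0.187. Without NK shADAR1 replicate 1, SLAMF7 reversed to -0.0775 and TYROBP to -0.118, and without NK shADAR1 replicate 2, CD247 reversed to -0.274. With 1 library left out, the highest values of these genes were 0.308 (SLAMF6), 0.32 (SLAMF7), 0.313 (TYROBP) and 0.267 (CD247). The cause was not tested. NCR1 kept its direction in all 12 alternatives (0.25 to 0.62, both with 1 library left out), as did NCR2, NCR3, CD244 and FCER1G. Its unadjusted p fell under 0.05 in limma on FPKM (0.0404 and 0.0389) and without NK scramble replicate 2 (0.0386). The number of genes called in the whole table was 0 in edgeR and rose to 213 with unadjusted p-values and to between 1 (without NK shADAR1 replicate 2) and 47 (without NK scramble replicate 1) when 1 library was left out, where the lone library is assumed to vary like the other group. The members' median moved between 0.0641 and 0.303 with 1 library left out.

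With the replicate number as a replicate block, 13 genes were called, none of them a member, the members' median was 0.134, and NCR1 stood at 0.441 (unadjusted p = 0.0263, adjusted p = 0.729, edgeR). Deviations from the group means correlated at 0.308 between libraries of the same number. The labels name no shared batch, and whether libraries of the same number shared more than that number was not tested.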
